A study of Homo sapiens with 7 samples.

Results

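The 10 genes described here are HMOX1, NQO1, GCLC, GCLM, TXNRD1, SRXN1, SLC7A11, FTH1, FTL and KEAP1, a set of oxidative stress and iron genes of the NRF2 pathway, chosen by name out of the 16045 genes with sense reads in the 3 count tables. They were measured in HEK293 cells, an established line of human embryonic kidney origin, by 3′ end sequencing (3′READS), in which each PAS-supporting (PASS) read marks the polyadenylation site (PAS) of 1 RNA. Cells received a control siRNA (siCtrl) or siRNAs for knockdown (KD) of Star-PAP (siStar-PAP), PAPα (siPAPα), PAPγ (siPAPγ) or both canonical poly(A) polymerases together (siPAPαγ), and the labels name no oxidant or other treatment. The comparisons ask which of these nuclear poly(A) polymerases each gene and PAS depended on.

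There were 7 libraries. In the 3′READS protocol, 1 library each was made of siCtrl, siStar-PAP, siPAPα, siPAPγ and siPAPαγ. A second siCtrl and a second siStar-PAP library, labelled batch 2, were made with 3′READS+, so that batch and protocol cannot be told apart. The other libraries are called batch 1 here, although the labels give no batch for siPAPαγ. All 4 KD libraries of the first protocol were compared with the same siCtrl library, so they share its errors. The labels name no separate cultures, and a KD leaves some of the enzyme in the cells.

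NRF2 is the transcription factor that switches on genes of antioxidant defence. In resting cells KEAP1 holds it for ubiquitination by a CUL3 ligase, and oxidants or electrophiles that modify KEAP1 let it reach the antioxidant response elements of its targets. Among these are NQO1, a quinone reductase, and HMOX1, heme oxygenase, which breaks down heme and sets iron free. The ferritin subunits FTH1 and FTL store that iron. Star-PAP, encoded by TUT1, is a non-canonical nuclear poly(A) polymerase for which HMOX1 and NQO1 were described as targets before these data. Sources differ on GCLC, which the choice of this set counts as a target and the study calls a non-target.

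The PASs that carry the results are listed with their sequences, because the members differ in how many they use. Each line gives 30 bases of the transcript strand from hg19, 5′ to 3′, with the poly(A) signal in capitals (the last AATAAA, or failing that ATTAAA, within 40 bases of the listed position). Each stretch ends at the PAS or up to 4 bases before it. These stretches are in the last exon and 3′UTR by the GENCODE annotation.
HMOX1, its only PAS, chr22:35790171-35790200, plus strand: tgaaatAATAAAcaacattgtctgatagta
NQO1, upstream PAS, chr16:69744744-69744773, minus strand: caaggAATAAAtgagagggaatcgactgta
NQO1, downstream PAS, chr16:69743306-69743335, minus strand: aaataAATAAAattcatttctacagaccca
GCLC, PAS with a lower share in siStar-PAP of batch 1, chr6:53362940-53362969, minus strand: ccctctgAATAAAtacccattgaactctga
GCLC, most downstream PAS, chr6:53362143-53362172, minus strand: aAATAAAagaatggaattagctttcattca
KEAP1, upstream PAS, chr19:10597284-10597313, minus strand: ttgggcaaaaatacagtccaatggggagta
KEAP1, downstream PAS, chr19:10596802-10596831, minus strand: aAATAAAgaacagactaactagtgtctttc
FTH1, downstream PAS, chr11:61731757-61731786, minus strand: ttttatgAATAAAaggcattaaaggctgaa
FTL, its only PAS, chr19:49470107-49470136, plus strand: gaccaaatggaAATAAAgctttttgatgca
SRXN1, PAS used in batch 1, chr20:628514-628543, minus strand: gcctcctgcAATAAAactgggatcccatta
SRXN1, PAS used in batch 2, chr20:627261-627290, minus strand: aAATAAAagtttatttaatttaaaaaaaaa

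The upstream PAS of KEAP1 held neither signal, while the other 10 stretches held AATAAA. Over the 43 member PASs that took at least 5% of a gene in a library with at least 20 of its reads, AATAAA was found at 44.2%, ATTAAA alone at 16.3% and neither at 39.5%. The shares over all 72453 listed sense PASs were 45.1%, 15.7% and 39.2%. The ATA trimer, a core of the motif linked to Star-PAP, stood on the transcript strand between 100 and 41 bases upstream at 60.5% of the member PASs and at 59.6% of all PASs, with 0 copies at the HMOX1 PAS and the upstream NQO1 PAS and 1 at the downstream NQO1 PAS.

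The count tables held 2347192 sense reads (siStar-PAP, batch 2) to 16191098 sense reads (siPAPα) per library. Levels are sense PASS reads of a gene per 1000000 PASS reads of the library (RPM), and 95% exact Poisson intervals cover counting error only, since PCR copies were not removed with molecular identifiers. TUT1 had 7.26 RPM (83 reads) in siCtrl of batch 1 and 0.121 RPM (2 reads) in siStar-PAP, but only 6 and 4 reads in batch 2, too few to check that KD by its RNA. PAPOLA, which encodes PAPα, fell to 7.70% of siCtrl in siPAPα and 6.24% in siPAPαγ. In siStar-PAP PAPOLA was at 42.8% of siCtrl in batch 1 and 89.8% in batch 2. Relative to the median gene it stood at a log2 ratio of -0.73 in batch 1 and 0.04 in batch 2. The edgeR fit over both batches, described below, put it at -0.35 (SE 0.51, adjusted p = 0.813). By immunoblot, the study saw no apparent change of the other PAPs in each KD. The part of PAPOLA in the siStar-PAP results was not tested. PAPOLG, which encodes PAPγ, had 5 reads in siCtrl and 15 in the library labelled siPAPγ and so did not check that label. All 6 HEK293 markers looked for were listed in at least 1 count table, with a summed level of 21.3 to 78.4 RPM. In siCtrl of batch 1 NEFL had 419 reads, LIN28B 77 and NEFM 35, but PAX2, LHX1 and WT1 had only 8, 16 and 12. PAX2 and LHX1 had 0 reads in siStar-PAP of batch 1, and WT1 had 0 in siPAPαγ. No blood marker was listed, hepatocyte and fibroblast markers were limited to APOA1 and COL1A1, and neither list exceeded 3.85 RPM in any library.

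HMOX1 and NQO1 had lower levels than siCtrl in every KD library, and they were the members that passed the test in siStar-PAP. HMOX1 is transcribed from chr22:35776354-35790207 (hg19, plus strand) and all of its sense reads came from 1 PAS. It had 13.3 RPM (152 reads) in siCtrl of batch 1 and 1.39 RPM (23 reads) in siStar-PAP, with 1.83 RPM (46 reads) in siPAPα, 5.00 RPM (74 reads) in siPAPγ and 1.76 RPM (33 reads) in siPAPαγ. In batch 2 it had 5.15 RPM (26 reads) in siCtrl and 0.471 RPM (2 reads) in siStar-PAP. Each KD library was thus below its own siCtrl, and siPAPγ stood between siCtrl and the other KDs of the first protocol. As a percentage of siCtrl the level was 10.4% in siStar-PAP of batch 1, 9.14% in siStar-PAP of batch 2, 13.8% in siPAPα, 37.6% in siPAPγ and 13.2% in siPAPαγ.

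NQO1, at chr16:69740899-69760571 on the minus strand, had 25 RPM (286 reads) in siCtrl of batch 1. It had 3.02 RPM (50 reads) in siStar-PAP, 3.27 RPM (82 reads) in siPAPα, 2.23 RPM (33 reads) in siPAPγ and 3.78 RPM (71 reads) in siPAPαγ. The 4 KD libraries lay close together, with intervals that overlapped, and all were far below siCtrl. In batch 2, where siCtrl itself had only 2.97 RPM (15 reads), siStar-PAP had 0.706 RPM (3 reads). The level was 12.1%, 13.1%, 8.91% and 15.1% of siCtrl in siStar-PAP, siPAPα, siPAPγ and siPAPαγ, and 23.8% in siStar-PAP of batch 2.

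**Figure D1:**
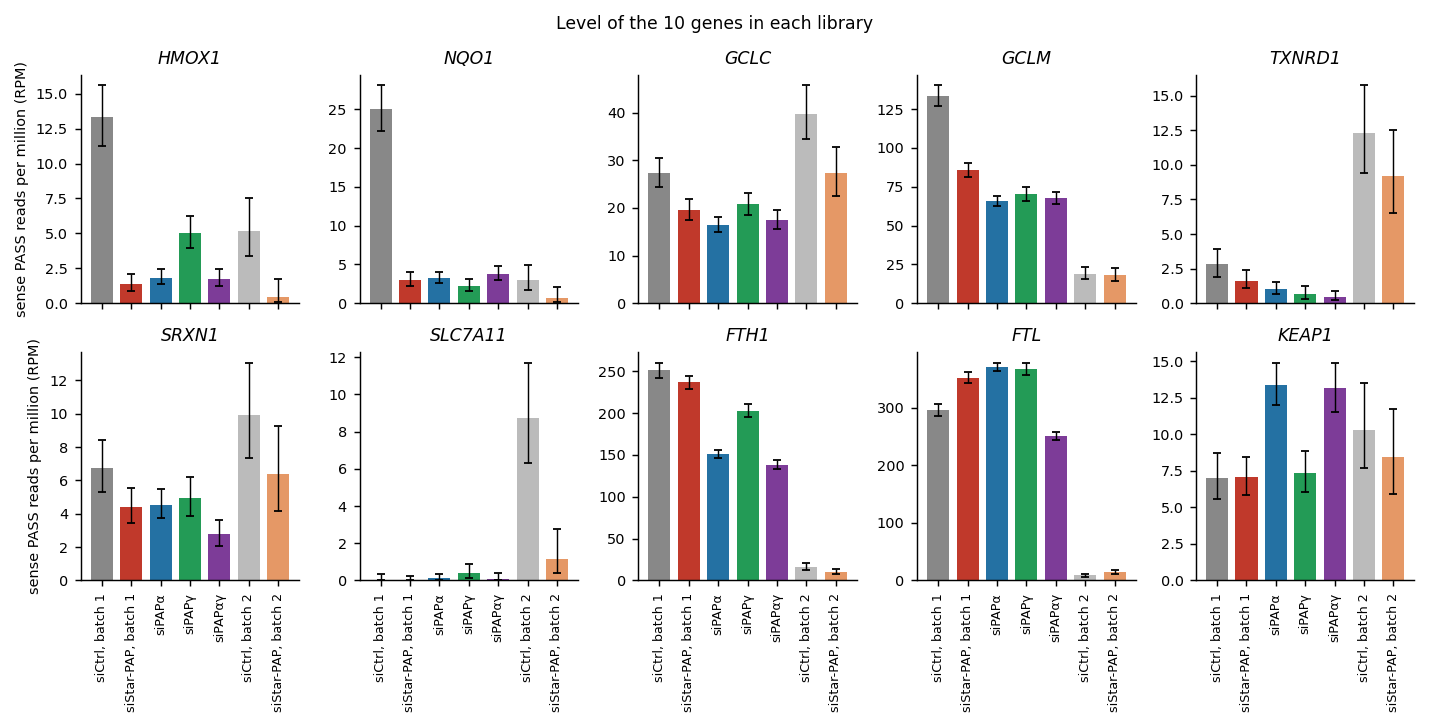
Sense PASS reads in RPM (y axis, linear, from 0, own scale in each panel) of the 10 genes in each of the 7 libraries; bars are single libraries and error bars 95% exact Poisson intervals. HMOX1 goes from 13.3 RPM in siCtrl to between 1.39 and 5.00 RPM in the KDs of batch 1, NQO1 from 25 RPM to between 2.23 and 3.78 RPM, and FTH1, FTL and GCLM are far lower in both libraries of batch 2.

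For siStar-PAP, the KD with 2 libraries, the genes were fitted over both batches with batch as a block (edgeR quasi-likelihood test, TMM factors, Benjamini-Hochberg adjustment over 11614 genes). HMOX1 was lower by a log2 fold change of -2.88 (SE 0.66, adjusted p = 0.0238) and NQO1 by -2.36 (SE 0.56, adjusted p = 0.0290). These 2 of the 10 members were called lower and 0 were called higher, while 1.08% of all genes were called lower and 1.21% higher. HMOX1 and NQO1 were lower in 2 of 2 batches. The fit left 1 residual degree of freedom, and its calls depended on the tool and on the block. With DESeq2, 0 members were called, with an adjusted p of 0.0950 for NQO1 and none given for HMOX1. At an unadjusted p under 0.05 in DESeq2, HMOX1 and NQO1 were lower and FTL was higher. Of all 11614 genes, 525 were lower and 734 higher at that threshold. Without the block edgeR called 0 genes of the whole table, with 45 lower and 17 higher at an unadjusted p under 0.05.

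The other 8 members did not pass this test. SLC7A11, the light chain of the cystine and glutamate exchanger that feeds glutathione synthesis, had a large but imprecise difference, at -2.56 (SE 1.37, adjusted p = 0.396). All of its reads in this fit came from batch 2, where siCtrl had 8.72 RPM (44 reads) against 1.18 RPM (5 reads) in siStar-PAP. The 44 siCtrl reads were spread over intronic and last-exon PASs. Of these 44, 12 were at the last-exon PAS that held all 5 siStar-PAP reads. In batch 1 SLC7A11 had 0 reads in siCtrl and in siStar-PAP, while siPAPα had 3 and siPAPγ 6. In the table of siPAPαγ, which lists other PASs, it had 6 reads in siCtrl and 2 in siPAPαγ, so its level was too low to compare in the first protocol. FTL was at 0.79 (SE 0.35, adjusted p = 0.272), and the remaining 6 lay between -0.26 for SRXN1 and 0.24 for KEAP1, each with a smaller distance from 0 than its SE.

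Per library pair, a gene was called where it changed more than 2-fold on the RPM scale with more than 50 reads over the pair; with 1 library a side this is a description and has no test. In siStar-PAP of batch 1, 2 of the 9 members with enough reads were lower (HMOX1 and NQO1), where 26.2% of all genes compared were lower. In siPAPα 4 of 9 were lower (HMOX1, NQO1, GCLM and TXNRD1), against 22.1% of all genes. In siPAPγ 2 of 8 were lower (HMOX1 and NQO1), against 20.7%, and in siPAPαγ 3 of 8 (HMOX1, NQO1 and SRXN1), against 26.5%. In batch 2, 0 of 7 members were past 2-fold where 11.7% of genes were lower, but HMOX1, NQO1 and SLC7A11 were left out there for too few reads. No member was more than 2-fold higher on the RPM scale, where 4.44%, 8.5%, 5.67%, 6.98% and 3.55% of all genes were in siStar-PAP of batch 1, siPAPα, siPAPγ, siPAPαγ and batch 2. In bulk RNA, a lower level per cell and fewer cells that express a gene cannot be told apart.

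The median gene itself was below siCtrl on the RPM scale, by a log2 ratio of -0.49 in siStar-PAP of batch 1, -0.19 in batch 2, -0.34 in siPAPα, -0.37 in siPAPγ and -0.44 in siPAPαγ. With TMM factors the median lay between -0.02 and 0.01. In siStar-PAP of batch 1 the calls over all genes then went from 2637 lower and 448 higher to 1295 lower and 1173 higher, and the other pairs moved the same way. HMOX1 and NQO1 stayed more than 2-fold lower in all 4 pairs of the first protocol under either scaling. Relative to the median gene, HMOX1 stood at -2.77 in siStar-PAP of batch 1, -3.26 in batch 2, -2.52 in siPAPα, -1.04 in siPAPγ and -2.48 in siPAPαγ. NQO1 stood at -2.56, -1.88, -2.60, -3.12 and -2.29 in the same order. For NQO1 the 95% counting interval of the unshifted log2 ratio ran from -4.05 to -2.97 in siPAPγ and from -3.51 to -2.61 in siStar-PAP, so these KDs were not told apart. For HMOX1 it ran from -1.83 to -1.001 in siPAPγ and from -3.96 to -2.62 in siStar-PAP, which do not overlap, although both share 1 siCtrl library and replicate error is unknown.

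**Figure D2:**
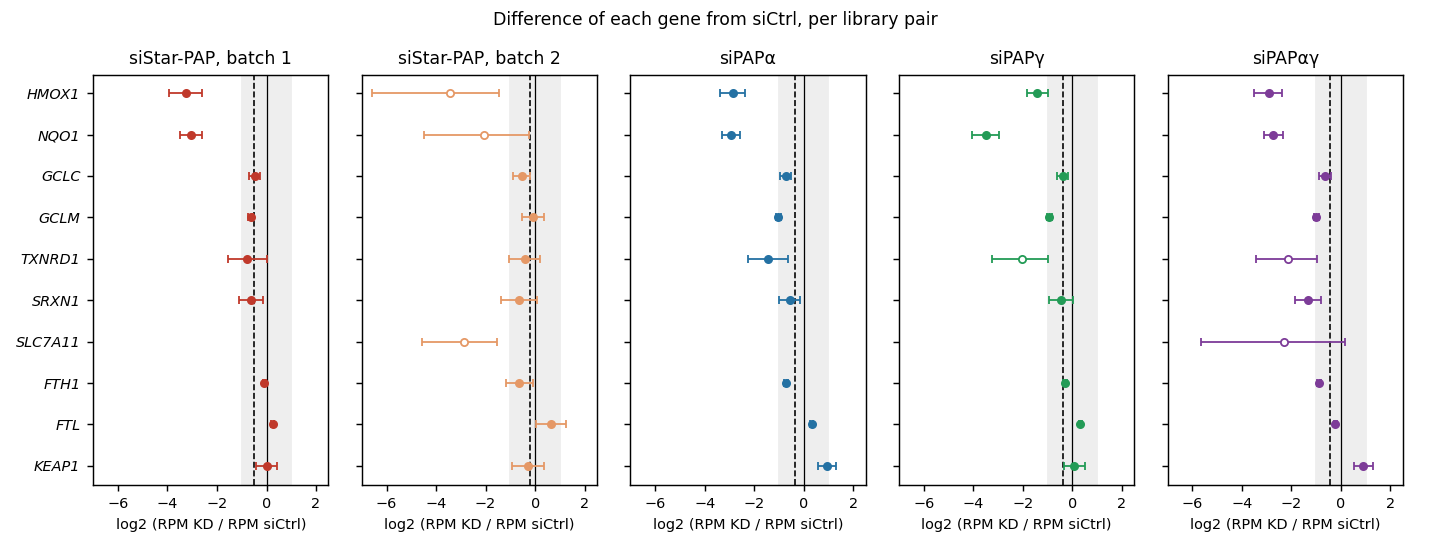
log2 ratio of RPM in each KD library to that in its siCtrl (x axis) for the 10 genes (rows), with 95% exact counting intervals; open points have 50 or fewer reads over the pair, the grey band marks 2-fold, the dashed line is the median gene, and SLC7A11 is missing where siCtrl had 0 reads. HMOX1 and NQO1 lie left of the band in every panel, at -3.26 and -3.05 in siStar-PAP of batch 1, and KEAP1 lies near its right edge in siPAPα (0.94) and siPAPαγ (0.91).

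A single fit of all 7 libraries, in which the lone KD libraries were assumed to vary like siCtrl and siStar-PAP, gave tests for the canonical PAPs. NQO1 was called lower in siPAPα (log2 fold change -2.46, SE 0.72, adjusted p = 0.0205) and in siPAPγ (-3.01, SE 0.75, adjusted p = 0.0111). It missed the threshold in siPAPαγ (-2.11, SE 0.71, adjusted p = 0.0507). HMOX1 missed it in siPAPα (-2.52, SE 0.85, adjusted p = 0.0573), in siPAPαγ (-2.44, SE 0.86, adjusted p = 0.0648) and in siPAPγ (-1.08, SE 0.81, adjusted p = 0.701). Of the 10 members 1 was called lower in siPAPα, 1 in siPAPγ and 0 in siPAPαγ, where 2.54%, 0.986% and 3.3% of all genes were, and 0 were called higher, where 3.36%, 1.29% and 3.4% were. For siPAPαγ this fit used the siCtrl counts listed with the other KDs of the first protocol, not those of its own table. TXNRD1, at -1.985 (SE 0.99), was thus set against 32 siCtrl reads, where the table of siPAPαγ lists 24. SLC7A11, at 2.99 (SE 2.85), was set against 0 siCtrl reads, where that table lists 6 in siCtrl and 2 in siPAPαγ.

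KEAP1, the repressor of NRF2 (chr19:10596801-10614234, minus strand), had 7.0 RPM (80 reads) in siCtrl of batch 1. It had 7.07 RPM (117 reads) in siStar-PAP, 13.4 RPM (336 reads) in siPAPα, 7.37 RPM (109 reads) in siPAPγ and 13.1 RPM (247 reads) in siPAPαγ. The libraries with PAPα knocked down, alone or with PAPγ, were thus the high ones, at 191% and 188% of siCtrl, and the others overlapped siCtrl. In batch 2 siCtrl had 10.3 RPM (52 reads) and siStar-PAP 8.47 RPM (36 reads), with intervals that overlapped. The difference stayed under 2-fold on the RPM scale and went past it with TMM factors, at log2 ratios of 1.27 in siPAPα and 1.34 in siPAPαγ. In the fit of all 7 libraries it did not pass (log2 fold changes of 1.18, SE 0.56, adjusted p = 0.249, and 1.29, SE 0.56, adjusted p = 0.169).

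Glutamate-cysteine ligase makes the rate-limiting step of glutathione synthesis, with GCLC as its catalytic and GCLM as its modifier subunit. GCLC (chr6:53362139-53481768, minus strand) had 27.3 RPM (312 reads) in siCtrl and 19.6 (324 reads), 16.5 (414 reads), 20.8 (307 reads) and 17.5 RPM (329 reads) in siStar-PAP, siPAPα, siPAPγ and siPAPαγ. In batch 2 it had 39.8 RPM (201 reads) in siCtrl and 27.3 RPM (116 reads) in siStar-PAP. GCLC was below siCtrl on the RPM scale in all of these, but the difference from the median gene was only 0.01 in siStar-PAP of batch 1, -0.35 in batch 2, -0.39 in siPAPα, -0.02 in siPAPγ and -0.20 in siPAPαγ on the log2 scale. In the siStar-PAP fit over both batches it was at -0.16 (SE 0.35, adjusted p = 0.883).

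GCLM (chr1:94350755-94375012, minus strand) went from 133 RPM (1524 reads) in siCtrl to 85.7 RPM (1418 reads) in siStar-PAP. It was at 65.7 RPM (1647 reads) in siPAPα, 70.2 RPM (1038 reads) in siPAPγ and 67.6 RPM (1270 reads) in siPAPαγ, so the canonical PAP libraries lay together and below siStar-PAP. It crossed 2-fold only in siPAPα (49.2% of siCtrl) and no longer did so there with TMM factors, at a log2 ratio of -0.69. In batch 2 the libraries overlapped, at 19.0 RPM (96 reads) in siCtrl and 18.1 RPM (77 reads) in siStar-PAP. Relative to the median gene, GCLM was at -0.14 and 0.12 in the siStar-PAP batches and at -0.69, -0.55 and -0.56 in siPAPα, siPAPγ and siPAPαγ.

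TXNRD1, the cytosolic thioredoxin reductase, and SRXN1, the sulfiredoxin that restores hyperoxidized peroxiredoxins, had few reads. TXNRD1 had 2.80 RPM (32 reads) in siCtrl of batch 1, 1.63 RPM (27 reads) in siStar-PAP, 1.04 RPM (26 reads) in siPAPα, 0.676 RPM (10 reads) in siPAPγ and 0.479 RPM (9 reads) in siPAPαγ, whose own table lists 24 reads for siCtrl. The 3 canonical PAP libraries had intervals that ended below that of siCtrl, while siStar-PAP overlapped it. In batch 2 TXNRD1 had 12.3 RPM (62 reads) and 9.18 RPM (39 reads) in siCtrl and siStar-PAP, which overlapped. SRXN1 had 6.74 RPM (77 reads) in siCtrl and 4.41, 4.54, 4.93 and 2.77 RPM in siStar-PAP, siPAPα, siPAPγ and siPAPαγ, of which only siPAPαγ (52 reads) ended its interval below that of siCtrl. Its difference of more than 2-fold there (40.02% of siCtrl) did not hold with TMM factors, at a log2 ratio of -0.89.

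The ferritin subunits were among the members with most reads in batch 1. FTL, the light chain, had 296 RPM in siCtrl of batch 1, 352 RPM in siStar-PAP, 371 RPM in siPAPα, 367 RPM in siPAPγ and 251 RPM in siPAPαγ. Relative to the median gene it was higher in all 5 pairs, by 0.75 in siStar-PAP of batch 1, 0.83 in batch 2, 0.66 in siPAPα, 0.68 in siPAPγ and 0.20 in siPAPαγ on the log2 scale, while on the RPM scale siPAPαγ was below siCtrl. FTH1, the heavy chain with the ferroxidase site, had 251 RPM in siCtrl and 237, 152, 203 and 138 RPM in siStar-PAP, siPAPα, siPAPγ and siPAPαγ, so that siPAPα and siPAPαγ were the low libraries. In batch 2 FTH1 had 16.4 RPM in siCtrl and 10.6 RPM in siStar-PAP. Relative to the median gene FTH1 was at 0.41 in siStar-PAP of batch 1, -0.44 in batch 2, -0.39 in siPAPα, 0.07 in siPAPγ and -0.45 in siPAPαγ, and its difference from FTL was not tested. Neither was past 2-fold in any pair. Both genes have processed pseudogenes in the genome, and only uniquely mapped reads were kept, which may have removed reads of either in every library.

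FTL, FTH1 and GCLM differed more between the siCtrl libraries of the protocols than between any KD and its siCtrl. HMOX1 differed less between the protocols than in any KD pair, of which siPAPγ was the smallest (2.66-fold lower). NQO1 differed more between the protocols than in all KD pairs but siPAPγ (11.2-fold lower). FTL was at 296 RPM in siCtrl of batch 1 and 8.91 RPM (45 reads) in siCtrl of batch 2, a 33.2-fold lower level, FTH1 was 15.3-fold lower, NQO1 8.42-fold, GCLM 7.01-fold and HMOX1 2.58-fold. TXNRD1 was 4.39-fold higher in batch 2, and GCLC, SRXN1 and KEAP1 were 1.46 to 1.47-fold higher. The median gene with more than 50 reads was 1.31-fold lower in batch 2, so the changes went in both directions around it. Each siCtrl has 1 library per protocol, and the part of the culture and that of the protocol in these values cannot be told apart.

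PAS use was read as the share of a gene's sense reads at each of its PASs. Over both batches, edgeR's diffSpliceDGE called 3 of 14981 PASs lower (0.02%) and 1 higher (0.00668%) in siStar-PAP, and 0 of the 11 member PASs tested. None of these reached an unadjusted p under 0.05. A fit of each PAS against the rest of its gene (edgeR) was not planned and was added after seeing the simulated data below. It called 23 PASs lower and 26 higher but again 0 of the members'. The lowest unadjusted p of a member PAS in this edgeR fit was 0.161, for the fourth PAS of GCLC from upstream. In simulated data diffSpliceDGE recovered 15 of 200 PASs changed 4-fold and the added fit 62, so most changes of this size were missed there. The simulation had the same dispersion for all PASs and no difference between batches, so it does not give the recovery in these libraries.

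Per library pair, shares were compared in genes with at least 50 reads in each library, with a call at 10 percentage points and no test. In siStar-PAP of batch 1, 3 of 15 member PASs (in 5 genes) were lower and 2 higher, where 14.1% and 14.4% of all PASs compared were. In siPAPαγ 1 of 21 was lower and 1 higher, against 11.5% and 12.3%. In siPAPα 0 of 14 were called, against 14.4% lower and 14.7% higher of all PASs, and in siPAPγ 0 of 11, against 12.1% and 12.4%. In batch 2, where only 2 member genes had enough reads, 0 of 10 were called, against 7.3% and 7.04%.

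NQO1 reads came mainly from 2 PASs in its last exon, 1438 nt apart. The upstream PAS had 82.2% (235 of 286 reads, 95% exact Clopper-Pearson interval 77.2% to 86.4%) in siCtrl of batch 1 and 62.0% (31 of 50, 47.2% to 75.3%) in siStar-PAP. It had 78.0% (64 of 82) in siPAPα, 84.8% (28 of 33) in siPAPγ and 64.8% (46 of 71, 52.5% to 75.8%) in siPAPαγ. The shares in siStar-PAP and siPAPαγ lay below the interval of siCtrl and those in siPAPα and siPAPγ overlapped it. The downstream PAS took 17.8% in siCtrl, 30% in siStar-PAP and 35.2% in siPAPαγ, and in siStar-PAP another 8% (4 of 50) ended in an upstream coding exon that had 0 of 286 reads in siCtrl, which allows a share of up to 1.05%. Batch 2 had 15 and 3 reads, too few for a share. In RPM both main PASs of NQO1 were lower in every KD of batch 1, so the shift of share lay within a lower level of both.

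**Figure D3:**
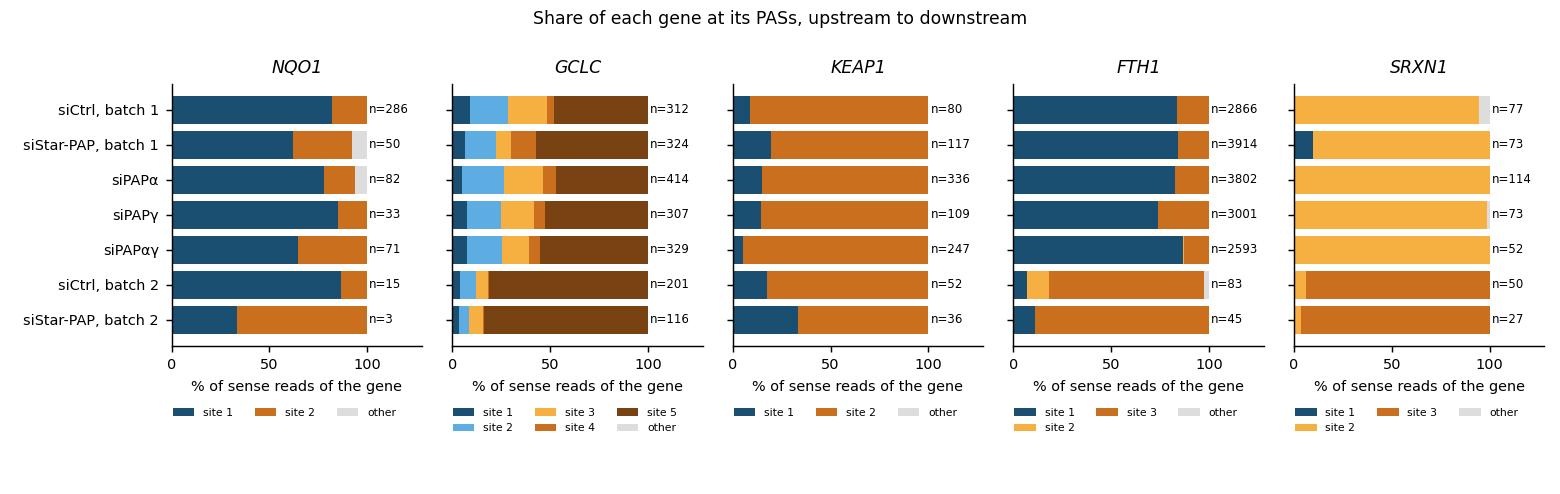
Share of the sense reads of NQO1, GCLC, KEAP1, FTH1 and SRXN1 at their PASs (x axis, percent; colours from the most upstream site 1 to the most downstream, grey for all others) in each of the 7 libraries (rows, single libraries, n is the reads of the gene). The upstream NQO1 share goes from 82.2% in siCtrl to 62.0% in siStar-PAP and 64.8% in siPAPαγ, and FTH1 and SRXN1 switch sites between the batches.

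GCLC used 5 PASs in its last exon, spread over 994 nt. The most downstream one took 47.8% (149 of 312) in siCtrl of batch 1, 57.4% (186 of 324) in siStar-PAP, 46.9% (194 of 414) in siPAPα, 52.4% (161 of 307) in siPAPγ and 55.3% (182 of 329) in siPAPαγ, with intervals that all overlapped that of siCtrl. The third PAS went from 19.9% (62 reads, 15.6% to 24.7%) to 8.02% (26 reads, 5.31% to 11.5%) in siStar-PAP, and was at 20.05% in siPAPα, 16.9% in siPAPγ and 13.7% in siPAPαγ. The fourth, whose signal is ATTAAA, went from 3.85% (12 reads) to 12.3% (40 reads) in siStar-PAP and stayed between 5.47% and 6.52% in the other KDs. In batch 2 the third PAS had 6.47% (13 of 201) in siCtrl and 6.90% (8 of 116) in siStar-PAP, and the fourth had 1 of 201 and 1 of 116 reads, so neither difference of batch 1 appeared there. The most downstream PAS had 81.1% and 83.6% in those libraries.

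KEAP1 had 2 PASs, 483 nt apart. The upstream one, without either signal, had 8.75% (7 of 80 reads, 3.59% to 17.2%) in siCtrl of batch 1, 19.7% (23 of 117, 12.9% to 28.0%) in siStar-PAP and 5.26% (13 of 247) in siPAPαγ. Its shares after KD of PAPα and PAPγ singly were 14.9% and 14.7%. It was listed 3 nt further upstream in siPAPαγ and in batch 2, where it had 17.3% (9 of 52) in siCtrl and 33.3% (12 of 36) in siStar-PAP. Its share was higher in siStar-PAP in 2 of 2 batches, by 10.9 and 16.0 percentage points, with intervals that overlapped in both and an unadjusted p of 0.335 in the fit over both batches (edgeR).

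FTH1 used an upstream and a downstream PAS 278 nt apart. In batch 1 the upstream PAS took 83.8% (2403 of 2866 reads) in siCtrl, 83.9% in siStar-PAP, 82.5% in siPAPα, 74.1% (2224 of 3001) in siPAPγ and 86.5% (2244 of 2593) in siPAPαγ. siPAPγ stood apart on the low side, with an interval of 72.5% to 75.7% below all the others. It was 9.74 percentage points under siCtrl and just short of the call. The table of siPAPαγ lists a further FTH1 PAS and gives siCtrl a share of 82.2% (2403 of 2924, 80.7% to 83.6%). Against this, siPAPαγ was on the high side, with an interval of 85.2% to 87.8% that did not overlap it. In batch 2 the downstream PAS took 79.5% (66 of 83) in siCtrl and 88.9% (40 of 45) in siStar-PAP, so the main PAS of FTH1 was the other one. SRXN1 differed in the same way, with 94.8% (73 of 77) at the PAS 1255 nt upstream in siCtrl of batch 1 and 94.0% (47 of 50) at the downstream PAS in siCtrl of batch 2. In the table of siPAPαγ the downstream PAS of SRXN1 had 2 of 79 siCtrl reads. That downstream PAS lies in a run of genomic A bases, seen at the end of its sequence above, and the part of this in the difference between protocols was not tested. siStar-PAP of batch 1 also had 9.59% (7 of 73) of SRXN1 reads at an intronic PAS with 0 of 77 in siCtrl, which allows a share of up to 3.90%.

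GCLM and FTL showed no second PAS of weight in batch 1. GCLM had all of its reads at 1 PAS in the 4 libraries of the main table and 98.4% (1250 of 1270) in siPAPαγ, and in batch 2 it had 87.5% (84 of 96) there in siCtrl and 96.1% (74 of 77) in siStar-PAP. TXNRD1 reads were spread in batch 1, where the PAS with most reads took 19 of 32 in siCtrl, 10 of 27 in siStar-PAP, 6 of 26 in siPAPα, 4 of 10 in siPAPγ and 7 of 9 in siPAPαγ, at 4 different positions. The one in siPAPα lies beyond the annotated exons. In batch 2 a single PAS took 95.2% (59 of 62) in siCtrl and 94.9% (37 of 39) in siStar-PAP.

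Other genes of the pathway were counted from lists of NRF2 regulators (8 genes), further NRF2 targets (24 genes) and iron handling (17 genes), of which 8, 23 and 16 had reads. NFE2L2, which encodes NRF2 itself and is named for that reason, was at a log2 fold change of -0.82 in the siStar-PAP fit over both batches (edgeR, SE 0.60, adjusted p = 0.566), with 17 reads in siCtrl and 3 in siStar-PAP of batch 1 and 71 and 51 in batch 2.

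In the KDs of the canonical PAPs, more of the further NRF2 targets were past 2-fold lower than higher. On the RPM scale 7 of 19 were lower in siPAPα, 7 of 19 in siPAPγ and 10 of 19 in siPAPαγ, with 0 higher, where 22.1%, 20.7% and 26.5% of all genes were lower and 8.5%, 5.67% and 6.98% higher. With TMM factors the counts were 5 lower and 2 higher in siPAPα, where 1492 of 10808 genes were lower and 1617 higher. They were 5 and 3 in siPAPγ, where 1118 of 10163 genes were lower and 1151 higher, and 7 and 3 in siPAPαγ, where 1502 of 10022 were lower and 1478 higher. The list's median relative to the median gene was -0.14, -0.11 and -0.74 on the log2 scale. CBR1, a carbonyl reductase, was lower in all 3 under either scaling, from 234 RPM in siCtrl to 80.6 RPM in siPAPα, 63.6 RPM in siPAPγ and 50.9 RPM in siPAPαγ. It was also past 2-fold lower in siStar-PAP of batch 1 under either scaling, at 66.5 RPM, and went from 65.2 to 45.4 RPM in batch 2. EPHX1, the microsomal epoxide hydrolase, went from 18.7 RPM to 6.34, 5.27 and 6.33 RPM, and GSS, glutathione synthetase, from 4.29 RPM to 1.40, 1.49 and 1.33 RPM, also under either scaling. In siStar-PAP EPHX1 had 8.52 RPM in batch 1, past 2-fold lower on the RPM scale but not with TMM factors, and went from 11.1 to 3.06 RPM in batch 2, past 2-fold under either scaling. GSTP1, a glutathione transferase, and AKR1C3, an aldo-keto reductase with closely related paralogs, were lower in all 3 on the RPM scale. Each was within 2-fold in 1 KD with TMM factors.

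In siStar-PAP the same list had 4 of 19 lower and 1 higher in batch 1, where 26.2% and 4.44% of all genes were, and 1 of 12 lower and 1 higher in batch 2, where 11.7% and 3.55% were. With TMM factors these counts were 2 lower and 3 higher in batch 1, where 1295 of 10079 genes were lower and 1173 higher. They were 1 and 1 in batch 2, where 589 of 7127 genes were lower and 426 higher. The move towards higher calls in batch 1 was thus shared by all genes. The list's medians relative to the median gene were 0.18 and 0.20. Among NRF2 regulators SQSTM1, an autophagy receptor that binds KEAP1, was more than 2-fold higher in siPAPα, siPAPγ and siPAPαγ under either scaling. It had 59.2 RPM in siCtrl of batch 1 and 161, 153 and 174 RPM in these KDs, but 56.7 RPM in siStar-PAP. In batch 2 it had 191 RPM in siCtrl and 146 RPM in siStar-PAP. Of the 7 regulators with enough reads, 1 was lower in siStar-PAP of batch 1 and 2 in batch 2, and 2, 0 and 3 in siPAPα, siPAPγ and siPAPαγ, beside the same shares of all genes. With TMM factors 1, 1, 1, 0 and 0 were lower in that order, so the 3 in siPAPαγ did not hold. The counts of all genes with TMM factors are those given above for each pair. Among iron handling genes 1 of 15 was lower and 1 higher in siStar-PAP of batch 1, 0 of 12 and 1 in batch 2, 1 of 15 and 1 in siPAPα, 2 of 15 and 0 in siPAPγ, and 3 of 14 and 0 in siPAPαγ, beside 26.2%, 11.7%, 22.1%, 20.7% and 26.5% of all genes lower. With TMM factors these counts were 0 lower and 2 higher, 0 and 1, 0 and 2, 1 and 2, and 1 and 0, beside the same counts of all genes.

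**Figure D4:**
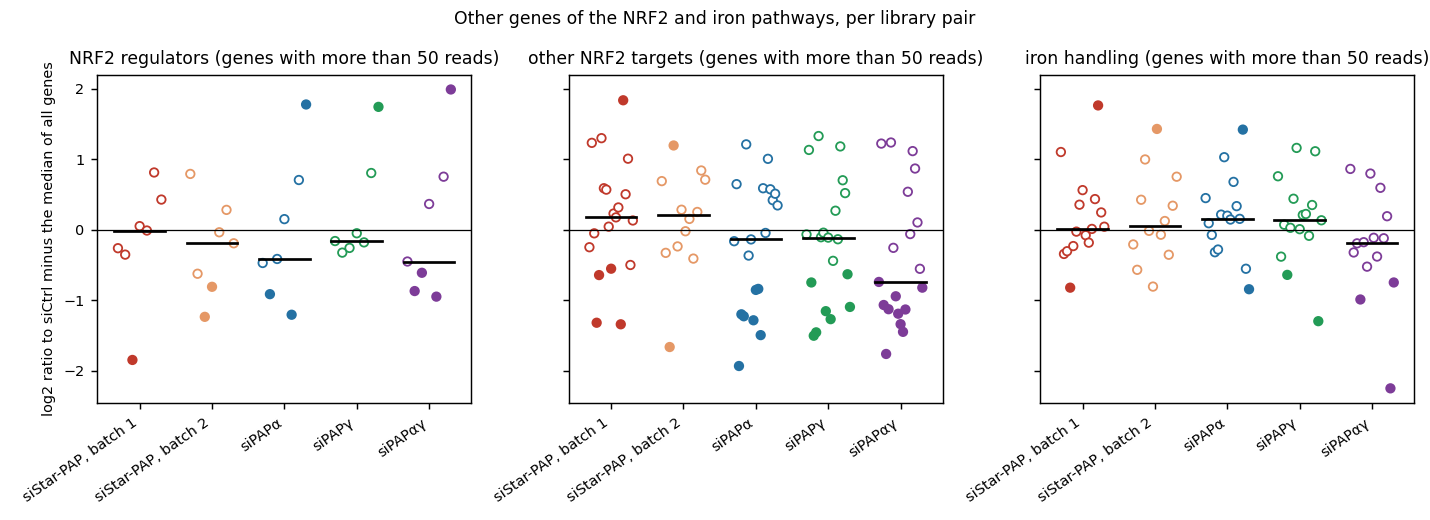
log2 ratio to siCtrl minus the median of all genes (y axis) for the genes of 3 lists with more than 50 reads over the pair (panels), in 5 library pairs (x axis); points are genes, filled where the RPM ratio is past 2-fold, and bars are list medians. The median of further NRF2 targets lies at 0.18 and 0.20 in the siStar-PAP pairs and at -0.74 in siPAPαγ, and the highest filled point of the NRF2 regulators in the 3 canonical PAP pairs is SQSTM1.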

How the data were processed

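The authors made 3′READS libraries (3′READS+ in batch 2), used Bowtie2 for mapping to hg19, retained unique hits whose tails were not templated by the genome, and deposited PASS read counts per PAS, not normalized, in 3 tables. All 7 libraries were taken from the labels, 0 columns were unassigned, and 0 rows lacked a gene. The siCtrl counts of batch 1 are repeated in the siPAPαγ table, and 99.6% of the PASs listed in both had identical reads. The members and lists were chosen with earlier results of these data known.

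Sense reads of a gene were summed. RPM used the PASS read total that the study gives for each library. siStar-PAP was fitted over both batches with edgeR 4.0.16 (quasi-likelihood, TMM, default filter, batch as a replicate block) in R 4.3.3, adjusted over all genes at 0.05, and PAS use with diffSpliceDGE on PASs matched within 24 nt with at least 10 reads. Batches have their own siCtrl and protocol, so the block is given by the labels. Deviations of siCtrl and siStar-PAP of batch 1 from their group means correlated at r = 0.805 over 13351 genes. With 2 libraries a group both deviations carry the difference between the protocols, so this r does not test the block. Other KDs have 1 library. For these, log2 ratios of RPM with exact intervals were called at more than 2-fold and more than 50 reads. A count of 0 was read as allowing 3 reads. p-values measure the spread between these libraries only. In the siStar-PAP fit that spread was largely shared across genes, with a median of 20.1 prior degrees of freedom beside 1 residual degree of freedom. Each SE from edgeR is the absolute log2 fold change divided by the square root of the F statistic. In simulated data with 200 genes changed 4-fold, edgeR recovered 146 with 2 false calls among 11539 genes and DESeq2 1.42.0 recovered 119. These simulations, like those of PAS use, had the same dispersion for all genes and no difference between batches. They therefore do not show how the fits perform on batches that differ as these do. Genes named were the members, their PASs with at least 5% of reads in a library, the knocked down genes, and list genes called in the siStar-PAP fit or the same way in the 3 other KDs. Sequences came from GRCh37 and annotation from GENCODE 44 lifted to hg19. Alternatives were another scaling, tool, filter, fold, read minimum, block and PAS merging. A list gene and a PAS sequence are not reported here.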

Additional observations from a re-analysis of the deposited data

Results flagged for a closer look

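Antisense PASs upstream of the members were left out of the levels above. At one of them, on the plus strand at position 636875 of chromosome 20 upstream of SRXN1, siStar-PAP of batch 1 had 1.81 RPM (30 reads, 95% exact Poisson interval 1.22 to 2.59) where siCtrl had 0.350 RPM (4 reads, 0.0954 to 0.896), a signal above the control in data that no comparison used. siPAPα had 0.199 RPM (5 reads), siPAPγ 0.608 RPM (9 reads) and siPAPαγ 0.958 RPM (18 reads), all of which overlapped siCtrl. The sense strand of SRXN1 was not higher in siStar-PAP. There is 1 library per condition here, so the difference has no replicate check.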

How the results depend on the processing

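HMOX1 and NQO1 kept their direction in the siStar-PAP fit under all alternatives tried, with log2 fold changes without 1 batch of -3.27 to -2.78 for HMOX1 and -2.57 to -1.90 for NQO1, which are values with no test. The 266 genes called there became 473 without an expression filter and 425 in 1 fit of all 7 libraries. The 2 members called became 0 with DESeq2. The block pairs siCtrl and siStar-PAP within a batch: with no replicate block, 0 genes, 0 members and 0 PASs were called. The 4 PASs called became 49 with each PAS set against the rest of its gene, an unplanned alternative added after seeing the simulated data. GCLM changed sign with RLE size factors (0.0124) and with DESeq2 (0.0137).

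Without 1 batch the log2 fold change ranged from -0.16 to 0.11 for GCLM, -0.46 to 0.39 for FTH1, -0.10 to 0.49 for KEAP1, -0.37 to -0.0012 for GCLC, -0.30 to -0.24 for TXNRD1, -0.46 to -0.13 for SRXN1 and 0.73 to 0.82 for FTL, and SLC7A11 had only -2.71, in batch 2. The share difference at the third GCLC PAS ranged from -11.8 to 0.429 points and at the upstream NQO1 PAS from -53.3 to -20.2. The -53.3 points rest on 1 of 3 reads in siStar-PAP and 13 of 15 in siCtrl of batch 2, too few for a share. At the upstream FTH1 PAS the difference ranged from 0.0844 to 3.88 points and at the upstream KEAP1 PAS from 10.9 to 16.0.

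The counts that follow take lower and higher calls together. Shares over all genes or PASs at the changed thresholds were not computed, so these counts are no result about the members. In the library pairs, a threshold of 1.5-fold gave 5 members in siStar-PAP of batch 1, 3 in batch 2, 7 in siPAPα and 7 in siPAPαγ. The 3 in batch 2 were SRXN1 (log2 ratio -0.64) and FTH1 (-0.63), both lower, and FTL (0.64), which was higher. More than 200 reads gave 1, 2 and 1 in siStar-PAP of batch 1, siPAPα and siPAPαγ. The fit of all 7 libraries gave 1 in siPAPα, 1 in siPAPγ and 0 in siPAPαγ. A threshold of 5 points gave 10 member PASs in siStar-PAP of batch 1, 1 in batch 2, 5 in siPAPα, 4 in siPAPγ and 6 in siPAPαγ, and at least 200 reads per library gave 1 and 0 in siStar-PAP of batch 1 and siPAPαγ. The causes were not tested. Depth limits batch 2 most, where HMOX1 and NQO1 had at most 26 reads.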

Other observations

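The antisense PAS upstream of FTH1, at position 61736342 of chromosome 11 on the plus strand, had 45 reads (3.94 RPM) in siCtrl and 7 reads (0.372 RPM) in siPAPαγ, both in one table, and 67 reads (13.3 RPM) and 35 reads (8.24 RPM) in siCtrl and siStar-PAP of batch 2. The sense strand of FTH1 had 16.4 RPM in siCtrl of batch 2. An antisense PAS of NQO1 had at most 6 reads in any library.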
